A study of Mus musculus with 3 samples.

Results

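DNA damage response and repair genes were examined for binding of the retinoid X receptor RXRA in mouse blood stem and progenitor cells. The set holds 47 protein-coding genes, named by symbol and all found among the 21900 protein-coding genes of the RefSeq table for the build of the files. They fall into 8 groups: 10 genes of the Fanconi anaemia pathway, 6 of homologous recombination, 3 of the double-strand break sensing complex, 5 of non-homologous end joining, 5 of base excision and single-strand break repair, 2 of mismatch repair, 8 of nucleotide excision repair, and 8 of damage signalling and the p53 circuit. Binding was measured by CUT&RUN, in which protein A fused to micrococcal nuclease cuts out DNA next to an antibody bound inside permeabilised cells. For HSC, 10000 stem cells sorted as Lin-cKit+Sca1+CD48-CD150+ gave the 1 library there is. Each of the 2 MPP libraries came from 50000 multipotent progenitors sorted as Lin-cKit+Sca1+CD150-. Every library came from C57BL/6 mice of about 10 months that the labels call wild type, with the genotype field naming VavCre+; WT and the growth protocol naming Rxrabfl/fl (WT). Marrow of 3 or 4 mice was pooled per sort, and all cells, HSC and MPP alike, received the RXR agonist bexarotene at 1 mM for 1 h. No untreated cells, receptor-deficient cells or antibody control were analysed here, and nothing in the labels says whether the MPP pools were of separate mice.

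RXRA is a nuclear receptor that pairs with other receptors, among them those for retinoic acid, fatty acids and oxysterols, and their pairs are known for binding direct repeats of the hexamer AGGTCA. Repair genes serve different kinds of damage: base excision repair removes altered bases, nucleotide excision repair removes bulky lesions, mismatch repair corrects copying errors, and the Fanconi anaemia pathway unhooks crosslinks between strands. Breaks across both strands are sensed by the Mre11, Rad50 and Nbn complex and joined either by homologous recombination, which copies an intact sister, or by end joining, which does not. The kinases Atm and Atr pass the alarm to Chek1, Chek2 and p53. In blood, loss of Fanconi anaemia genes is known for causing marrow failure, and stem cells that are not dividing are known to lean on end joining.

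The libraries differed in length and depth. HSC had 4047 peaks, MPP replicate 1 had 29848 and MPP replicate 2 had 19570. Each peak carries the authors' fold enrichment at its summit, from which, with its p-value, the number of fragments at the summit (the pileup) and the local background were recovered. The local background differed between peaks, and its lowest value was 0.604 fragments for HSC, 2.87 for MPP replicate 1 and 1.08 for replicate 2. The lowest listed pileup was 5 fragments for HSC, 10 for MPP replicate 1 and 6 for replicate 2. A site therefore needed more fragments to be listed in MPP replicate 1 than elsewhere, and fold was used only to rank peaks within their own list. The names of the HSC and MPP replicate 1 peaks share a tag that those of MPP replicate 2 lack, and its meaning is not stated in the labels. Of the genes behind the sort, Kit had a gene-end peak in both MPP libraries (fold 6.68 and 5.12) and a peak inside the gene in HSC, Ly6a and Cd48 had a gene-end peak in MPP replicate 1 alone (fold 3.86 and 3.21), and Slamf1 and the T cell gene Cd3e had no gene-end peak in any library. A peak is not expression, so these positions do not check the sort.

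RXRA peaks at the ends of repair genes were listed for most of the set in MPP and for few in HSC. A gene was counted as marked where a peak overlapped the 1 kb on either side of its first or last base. In HSC 8 of 47 repair genes were marked (17.0%, 95% exact binomial interval 7.65 to 30.8%), where 8.21% of all protein-coding genes were. In MPP replicate 1 34 were marked (72.3%, 57.4 to 84.4%), against 41.2% of all protein-coding genes. In MPP replicate 2 40 were marked (85.1%, 71.7 to 93.8%), against 36% of all protein-coding genes. Both MPP intervals lie above the share of all genes, whereas the HSC interval includes it, and among peaks with q at or below 1e-05 the HSC shares were 2.13% of repair genes and 2% of all genes. The background holds every protein-coding gene, whether or not it is used in blood, and expression of these genes was not analysed here. Since HSC has 1 library, no test between the cell types was possible, and the intervals cover counting error only.

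Marking was shared between the MPP libraries more than between the cell types. All 8 genes marked in HSC were also marked in at least 1 MPP library, which held for 96.4% of all HSC-marked genes. Fancd2, Xrcc4, Prkdc, Xpc and Chek1 were marked in all 3 libraries (5 of 47, 10.6%, against 5.83% of all genes), and Fancb, Brca1 and Chek2 in HSC and MPP replicate 2 (3 genes, against 1.74%). A peak at the end in each MPP library but none in HSC was found for 28 repair genes (59.6%), where 23.1% of all genes had that pattern. None was marked in HSC alone (0 of 47, against 0.297%) or in HSC with MPP replicate 1 and without replicate 2 (0 of 47, against 0.338%). At Fancd2, Xrcc4, Prkdc and Chek1 the 3 libraries' peaks overlapped (4 of 47, against 5.22%), and at Xpc they did not. MPP replicate 1 alone marked Fancl (1 of 47, against 12% of all genes). MPP replicate 2 alone marked Xrcc3, Ogg1, Ercc6 and Atm (4 of 47, against 5.32%). No gene-end peak was listed in any library for 6 genes, Fancc, Xrcc6, Xrcc1, Lig3, Mdm4 and Trp53bp1, against 51.4% of all protein-coding genes. Of the 34 repair genes marked in MPP replicate 1, 33 were marked in MPP replicate 2 (97.1%, against 70.1% of all genes marked in replicate 1), and of the 40 marked in replicate 2, 33 were marked in replicate 1 (82.5%, against 80.4%). Among the 33 genes marked in both MPP libraries, HSC marked 5 (15.2%, 5.11 to 31.9%), against 20.2% of all genes so marked, a share inside the interval.

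**Figure D1:**
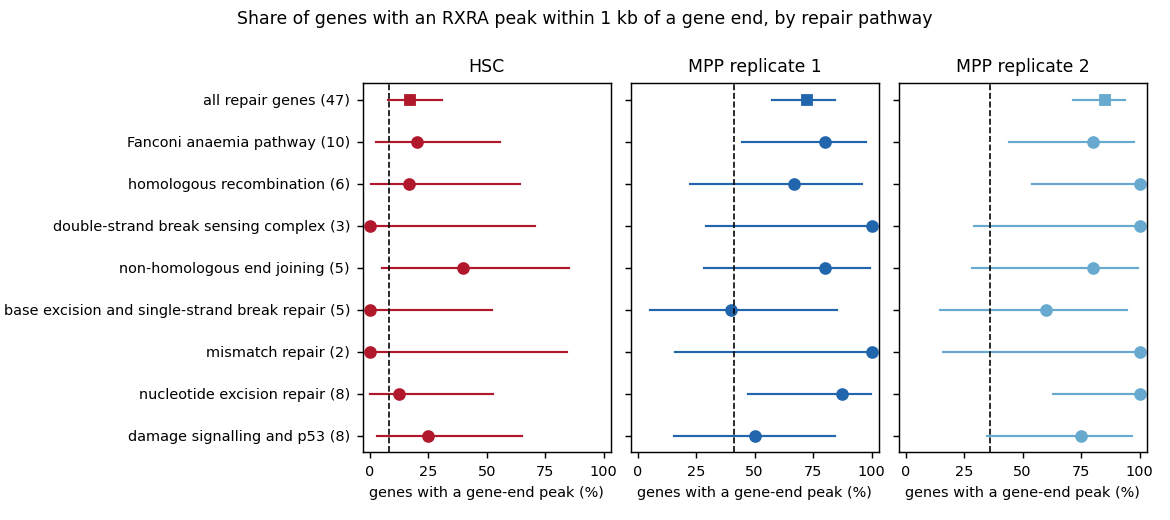
Percent of genes with an RXRA peak within 1 kb of a gene end (x axis) for all 47 repair genes and each of the 8 groups (y axis, number of genes in brackets), in HSC, MPP replicate 1 and MPP replicate 2. Points are shares, bars exact 95% binomial intervals and dashed lines the share of all 21900 protein-coding genes, at 8.21% for HSC, 41.2% for MPP replicate 1 and 36% for replicate 2. The intervals of the groups overlap within each library.

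At equal list length the gap between the cell types was smaller. With each MPP list cut to its 4047 peaks of highest fold, MPP replicate 1 marked 12 repair genes (25.5%, against 8.83% of all genes) and MPP replicate 2 also 12 (25.5%, against 10.1%), while HSC marked 8 (17.0%, against 8.21%). Only Fancd2, Xpc and Chek1 were then marked in all 3 (6.38%, against 1.44% of all genes). Palb2, Xrcc2, Msh6 and Ercc5 were marked in both MPP lists and not in HSC (8.51%, against 3.31%). Fancb, Brca1, Xrcc4 and Chek2 were marked in HSC and neither MPP list (8.51%, against 4.54%). The number of genes marked in MPP and not in HSC thus moves with the length of the lists, and a repair gene without an HSC peak was not shown to be unbound in HSC.

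The HSC peaks at repair genes were mostly weak within the HSC list, with 2 of 8 at or above its median fold. Their median fold was 4.94, at percentile 27.9 of all HSC peaks, where the strongest gene-end peaks of all HSC-marked genes had a median fold of 5.50, at percentile 49.0. Their pileups ran from 6 to 13 fragments with a median of 7.5. In MPP replicate 1 the median fold of the marked repair genes was at percentile 71.5 (63.5 for all marked genes), and in MPP replicate 2 at percentile 63.0 (61.2 for all marked genes). Brca1 was marked in HSC by 8 fragments and Fancd2 by 6, next to a lowest listed pileup of 5.

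**Figure D2:**
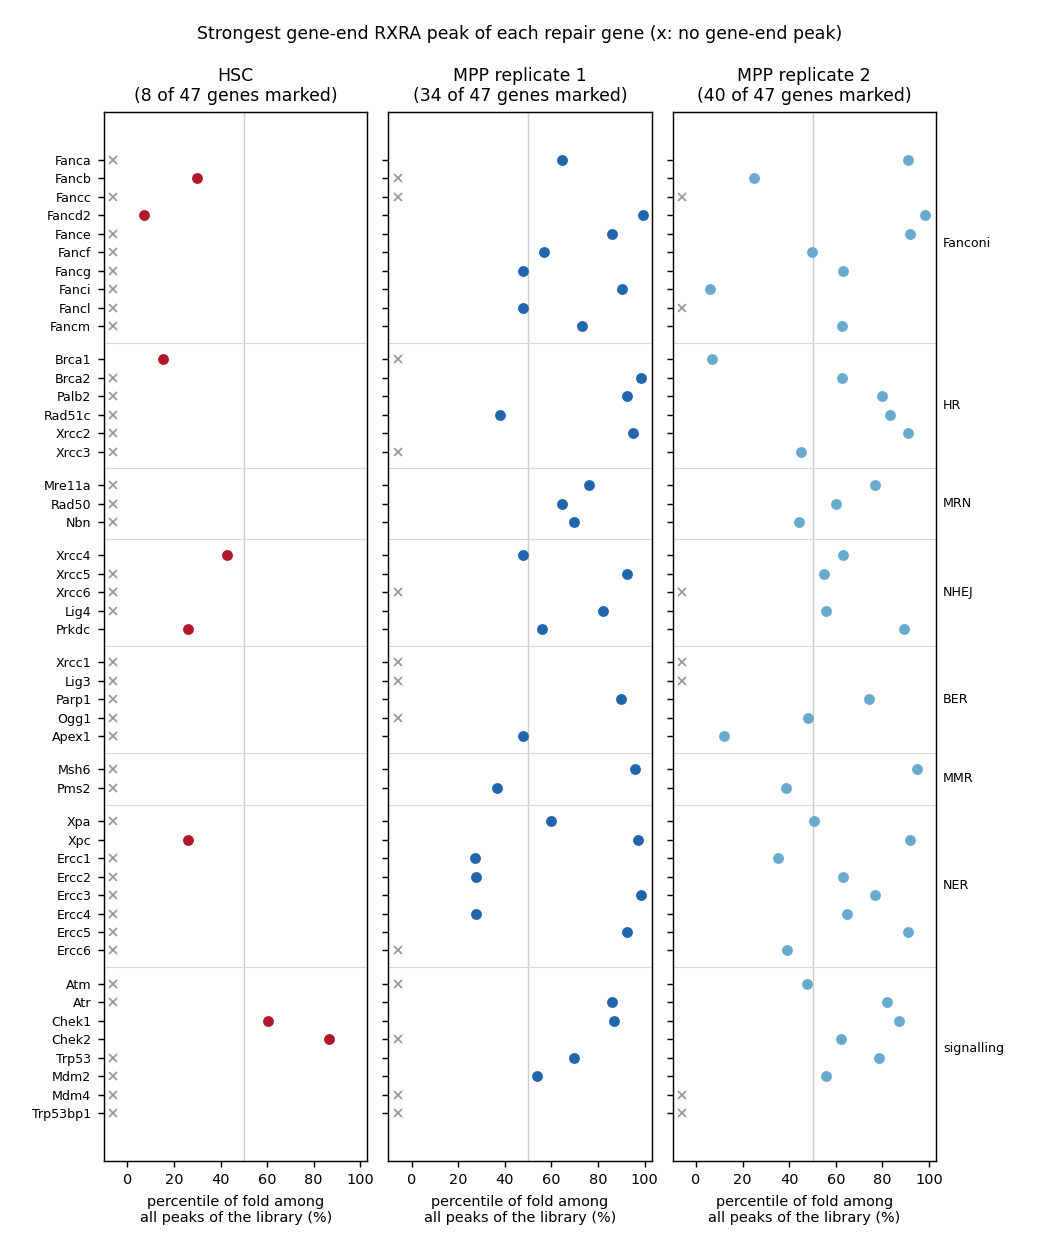
Percentile of the authors' fold among all peaks of the same library (x axis, in percent) for the strongest gene-end peak of each of the 47 repair genes (y axis, by group), in HSC, MPP replicate 1 and MPP replicate 2; a cross marks a gene with no gene-end peak. HSC shows 8 points, 6 of them left of the list median at 50, and Fancd2 is the rightmost point of both MPP panels.

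Chek2 had the strongest HSC peak of the set. Chek2, a kinase that Atm activates after breaks, lies at chr5:110839800-110874140. Its HSC peak, chr5:110839806-110840240, had fold 7.07 and 13 fragments (exact Poisson interval 6.92 to 22.2), at percentile 86.4 of the list, with its summit 57 bp upstream of the listed start. In MPP replicate 2 the peak chr5:110839725-110840256 had fold 6.19 and 16 fragments, and MPP replicate 1 had none at the gene's ends. The same peaks reach the end of Hscb, a gene of iron-sulphur cluster assembly, so they are counted for both genes. Chek2 was also the one repair gene whose HSC gene-end peak had a q at or below 1e-05.

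Chek1, the kinase downstream of Atr in the response to stalled replication, was marked in all 3 libraries at one site and had no other protein-coding gene end within reach of its peaks. The HSC peak chr9:36726547-36726890 had fold 5.75 and 9 fragments (4.12 to 17.1), with its summit 18 bp upstream of the start. In MPP replicate 1 the peak had fold 6.20 and 23 fragments, and in MPP replicate 2 fold 8.02 and 17 fragments, at percentiles 86.7 and 87.1 of their lists. All 3 summits lay within 58 bp of the start.

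Both HSC-marked end-joining genes were marked in every library. Xrcc4, the scaffold that holds DNA ligase 4, had an HSC peak at chr13:90089529-90089831 with fold 5.33 and 8 fragments (3.45 to 15.8), its summit 1 bp upstream of the start. The MPP peaks there had fold 4.39 with 16 fragments in replicate 1 and fold 6.25 with 12 fragments in replicate 2, and the Golgi gene Tmem167 has an end within reach of the same peaks. Prkdc, the catalytic subunit of the DNA-dependent protein kinase, had an HSC peak at chr16:15637494-15637777 with fold 4.89 and 7 fragments, and MPP peaks with fold 4.62 and 17 fragments in replicate 1 and fold 8.30 and 20 fragments in replicate 2. The Prkdc peaks also reach the end of Mcm4, a subunit of the replicative helicase. A second HSC peak lay inside Prkdc, chr16:15642641-15643031, with fold 7.40 and 12 fragments, at percentile 89.3 of the HSC list, and no MPP peak overlapped it.

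Fancd2 carried the gene-end peak of highest fold among the 47 genes in each MPP library. Fancd2, the protein that is ubiquitinated when the Fanconi anaemia pathway is switched on, had an HSC peak at chr6:113531504-113531925 with fold 4.23 and 6 fragments (2.20 to 13.1), at percentile 7.26. In MPP replicate 1 the peak had fold 10.1 and 38 fragments (26.9 to 52.2), and in MPP replicate 2 fold 10.9 and 24 fragments (15.4 to 35.7), at percentiles 99.3 and 98.1. These percentiles are ranks within lists of different length and lowest pileup, and no change between the cell types was read from them. The site is shared with Emc3, which codes for a subunit of a membrane protein insertion complex. With peaks given only to the nearest gene end, Fancd2 was marked in no library.

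Xpc and Brca1 were marked in HSC at positions other than their main MPP peak. Xpc, the protein that recognises distorting lesions in nucleotide excision repair, had its HSC peak (fold 4.89, 7 fragments) at chr6:91488543-91489061, the end of the gene next to Tmem43, where MPP replicate 2 had a peak of fold 4.24 and 11 fragments. Its strongest MPP peaks lay at the opposite end beside Lsm3, with fold 8.10 and 35 fragments in replicate 1 and fold 8.73 and 18 fragments in replicate 2. Brca1, which loads the recombination machinery together with Palb2 and Brca2, had its HSC peak (fold 4.47, 8 fragments) at chr11:101552111-101552571, with the summit 207 bp upstream of the start. The MPP replicate 2 peak (fold 4.03, 9 fragments) lay at chr11:101552624-101552932, 781 bp upstream, and did not overlap it. Both Brca1 peaks also fall in the end window of Nbr1, an autophagy receptor gene. When peaks were given only to the nearest gene end, Brca1 was marked in no library and Xpc in both MPP libraries but not in HSC. The remaining gene, Fancb of the Fanconi anaemia core complex, had an HSC peak at chrX:164980396-164980667 (fold 4.99, 7 fragments) overlapping a peak in MPP replicate 2 (fold 4.81, 9 fragments), next to Mospd2.

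**Figure D3:**
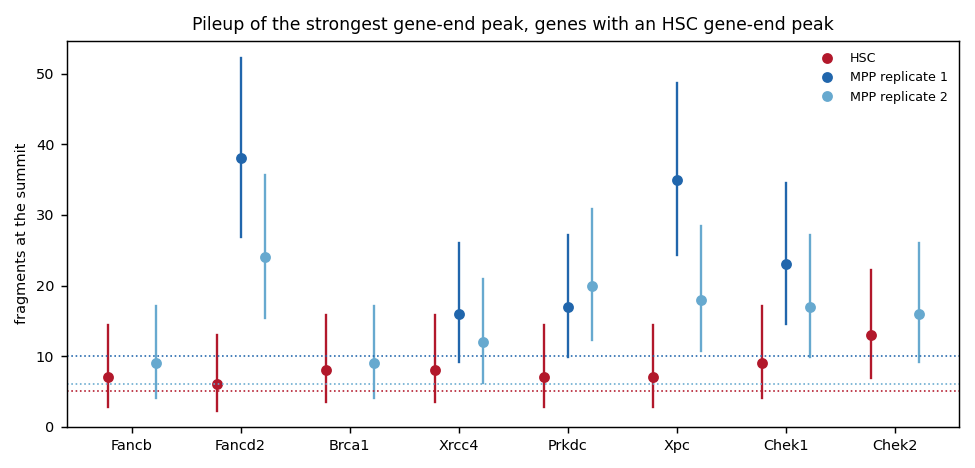
Fragments at the summit of the strongest gene-end peak (y axis) for the 8 repair genes marked in HSC (x axis), in HSC, MPP replicate 1 and MPP replicate 2 from left to right. Bars are exact 95% Poisson intervals, dotted lines the lowest pileup in each list (5, 10 and 6 fragments), and a missing point means no gene-end peak; HSC values lie between 6 and 13.

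By group, every gene of mismatch repair and of the break sensing complex was marked in both MPP libraries, and every gene of nucleotide excision repair and homologous recombination in MPP replicate 2. Base excision repair had the lowest share in both MPP libraries, and the exact intervals of the groups overlapped in each library. With peaks given only to the nearest gene end, 1 of 2 mismatch repair genes was marked in each MPP library. Mre11a of the break sensing complex was then marked in neither. Of the 8 nucleotide excision repair genes HSC marked 1, MPP replicate 1 marked 7 and replicate 2 all 8. Its strongest replicate 1 peak was at Ercc3, the Xpb helicase of TFIIH, with fold 8.87 and 39 fragments in replicate 1 and fold 7.08 and 15 fragments in replicate 2. Ercc5, the nuclease that cuts 3′ of the lesion, had fold 6.98 and 8.65 in the same order. Ercc1, partner of the nuclease Ercc4, carried weaker peaks at both of its ends in both MPP libraries, with a highest fold of 3.87 in replicate 1 and 5.13 in replicate 2. Ercc6, the Cockayne syndrome helicase that serves stalled transcription, was marked in MPP replicate 2 alone, with fold 5.29 and 10 fragments.

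The 3 genes of the break sensing complex were each marked in both MPP libraries, with no end peak in HSC. Mre11a, its nuclease, had the strongest peaks, with fold 5.43 and 20 fragments in replicate 1 and fold 7.05 and 16 fragments in replicate 2. With peaks given only to the nearest gene end, Mre11a was marked in neither MPP library, and Rad50 and Nbn in both. Rad50, the arm that bridges ends, had fold 4.91 and 6.07, and Nbn, which recruits Atm, had fold 5.09 and 5.39 in the same order. An exact interval on 3 of 3 genes runs from 29.2 to 100%, so the full count says little of the group as such.

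For homologous recombination, HSC marked 1 of 6 genes, MPP replicate 1 marked 4 and replicate 2 all 6. Brca2, a mediator of strand exchange, had the strongest replicate 1 peak, fold 9.02 with 35 fragments (24.4 to 48.7), and fold 6.21 with 12 fragments in replicate 2. Xrcc2, which also acts in recombination, led replicate 2 with fold 8.65 and 17 fragments, and had fold 7.49 and 28 fragments in replicate 1. Palb2, the bridge between Brca1 and Brca2, had fold 6.98 and 7.30 in replicates 1 and 2. Xrcc3, also of recombination, had a peak inside the gene in both MPP libraries (3928 bp from its start with fold 7.63 and 39 fragments in replicate 1, 3879 bp from it with fold 6.33 and 20 fragments in replicate 2), while its start was marked in replicate 2 alone.

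In the Fanconi anaemia pathway 2 of 10 genes were marked in HSC and 8 in each MPP library, 7 of them in both. Fancd2, Fanci and Fancm were marked in no library when peaks were given only to the nearest gene end. Besides Fancd2, Fance of the core complex had fold 6.09 and 8.73 in MPP replicates 1 and 2, and Fanca, also of the core, fold 4.91 and 8.65. Fanci, the partner of Fancd2, had fold 6.58 with 25 fragments in replicate 1 and fold 3.95 with 9 fragments in replicate 2. Fancl, the ubiquitin ligase of the core complex, was the only repair gene marked in MPP replicate 1 alone, with fold 4.39 and 16 fragments.

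In non-homologous end joining 2 of 5 genes were marked in HSC and 4 in each MPP library. Xrcc5, the larger Ku subunit, had fold 6.90 and 26 fragments in MPP replicate 1 and fold 5.80 and 12 fragments in replicate 2. Lig4, the ligase that seals the ends, carried peaks both at its outer start (fold 5.72 and 5.85 in replicates 1 and 2) and at a listed start inside the gene (fold 4.12 and 7.88). Xrcc6, the other Ku subunit, had no gene-end peak in any library.

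Base excision and single-strand break repair had no HSC-marked gene (0 of 5), while MPP replicate 1 marked 2 and replicate 2 marked 3, and 40.0% in replicate 1 stands next to 41.2% of all genes. Parp1, which senses nicks, had peaks at its start (fold 6.12 and 5.30 in replicates 1 and 2) and slightly stronger ones at its far end (fold 6.51 and 6.86). Apex1, the endonuclease for sites that have lost their base, had fold 4.39 and 4.32. Ogg1, the glycosylase for oxidised guanine, had a peak inside the gene in both MPP libraries (3729 bp from its start with fold 7.23 in replicate 1, 3737 bp from it with fold 5.32 in replicate 2), and its start was marked in replicate 2 alone (fold 5.56). Xrcc1, the scaffold of nick repair, and its ligase partner Lig3 had peaks neither at their ends nor inside the gene in any library. In mismatch repair neither gene was marked in HSC and both were in each MPP library. Msh6, which recognises the mismatch, had fold 7.75 with 29 fragments in replicate 1 and fold 9.46 with 25 fragments in replicate 2, at percentiles 96.0 and 94.9, and Pms2, the nuclease subunit that acts after it, had fold 4.1 and 5.26.

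Among the signalling and p53 genes, HSC marked 2 of 8, MPP replicate 1 marked 4 and replicate 2 marked 6. Atr, the kinase of stalled forks, had fold 6.11 and 7.47 in MPP replicates 1 and 2, and Trp53, which codes for p53, fold 5.08 and 7.20 at a window shared with Wrap53. Mdm2, the ubiquitin ligase that degrades p53, had fold 4.52 in replicate 1 and 5.84 in replicate 2. Atm, the kinase of breaks, was marked in replicate 2 alone by a pair of peaks (fold 5.12 and 5.55) shared with Npat. Mdm4, the other p53 inhibitor, and Trp53bp1, which steers breaks to end joining, had no gene-end peak.

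Several of the unmarked genes carried peaks at a start that lies inside the annotated gene. The promoter table lists starts for 40 of the 47 genes, and for 6 of these no gene-end peak was found in any library. Peaks inside the gene were present in both MPP libraries for 4 of the 6 (against 13.4% of all genes without a gene-end peak), Fancc, Xrcc6, Mdm4 and Trp53bp1. In 3 of the 6 both MPP libraries had a peak within 1 kb of a listed start (50.0%, 11.8 to 88.2%), which held for 4.2% of all such protein-coding genes. Trp53bp1 had its summit 8 bp upstream of the listed start in MPP replicate 1 (fold 5.43, 20 fragments) and 3 bp downstream of it in MPP replicate 2 (fold 7.47, 16 fragments). Mdm4 had summits 78 and 50 bp downstream (fold 4.37 and 5.59 in replicates 1 and 2), and Xrcc6 had summits 36 and 112 bp upstream (fold 5.09 and 7.77). Fancc, of the Fanconi anaemia core complex, had such a peak in MPP replicate 2 alone, 115 bp upstream of a listed start (fold 5.08). Counting ends and listed starts together, HSC marked 8 repair genes (against 8.84% of all genes), MPP replicate 1 marked 37 (78.7%, against 44.5%) and replicate 2 marked 44 (93.6%, against 38.7%). At listed starts alone, HSC marked 5 of 40 repair genes (against 8.57%), MPP replicate 1 marked 30 (75.0%, against 42.1%) and replicate 2 marked 37 (92.5%, against 38%), with 29 marked in both (72.5%, against 30.1%). Only Xrcc1 and Lig3 of the 47 genes then had no such peak in any library, where 52% of all protein-coding genes had one in at least 1.

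Summits sat close to the starts. Among marked repair genes with a listed start, the strongest gene-end peak had its summit within 1 kb of the start for 5 of 5 genes in HSC (against 88.2% of all marked genes), 24 of 27 in MPP replicate 1 (against 85%) and 31 of 33 in replicate 2 (against 88.9%). The median distance was 57 bp for HSC, 95 bp for MPP replicate 1 and 90 bp for replicate 2, where all marked genes had medians of 142.5, 107 and 108 bp.

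**Figure D4:**
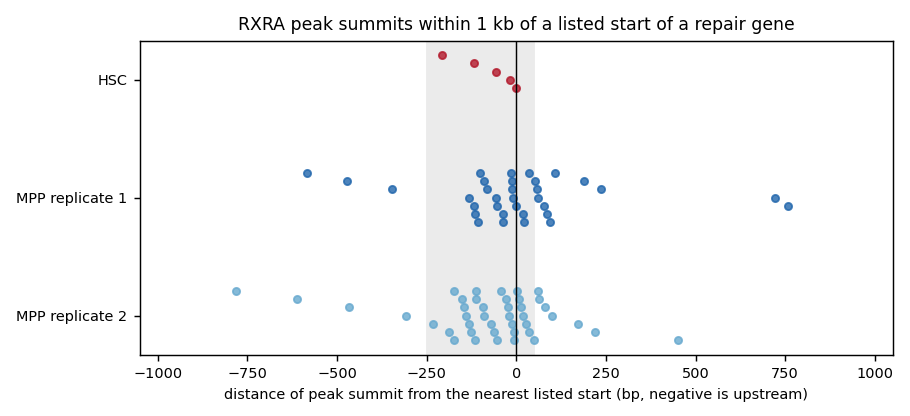
Distance of peak summits from the nearest listed start of a repair gene (x axis, in bp, negative is upstream), for every peak within 1 kb in HSC, MPP replicate 1 and MPP replicate 2 (rows; vertical scatter within a row has no meaning). The shaded band is the promoter window of 300 bases; it holds all 5 HSC summits, 19 of the 33 of MPP replicate 1 and 30 of the 42 of replicate 2.

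Repair genes often lie close to another gene, and many of the peaks are shared. Another protein-coding gene has an end within 1 kb of an end of 26 of the 47 (55.3%, 40.1 to 69.8%), against 24.8% of all protein-coding genes. In HSC the strongest peak reached the end of another protein-coding gene for 7 of 8 marked repair genes (against 35.4% of all marked genes), in MPP replicate 1 for 15 of 34 (against 25.8%) and in replicate 2 for 20 of 40 (against 30.1%). Marking in HSC was found in 7 of the 26 repair genes with such a neighbour (against 14.5% of all genes with one) and in 1 of the 21 without, Chek1 (against 6.12%). In MPP replicate 1, 18 of the 26 with a neighbour were marked (69.2%, 48.2 to 85.7%), an interval that includes the 59.8% of all such genes. Of the 21 without, 16 were marked (76.2%, 52.8 to 91.8%, against 35.1%). In MPP replicate 2, 23 of the 26 were marked (88.5%, 69.8 to 97.6%, against 57.9%) and 17 of the 21 (81.0%, 58.1 to 94.6%, against 28.7%). Which gene of such a pair a peak belongs to was not tested.

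Away from gene ends, the HSC share of repair genes was near that of all genes for peaks inside the gene and above it for peaks within 50 kb. Peaks inside the gene were found for 2 of 47 genes in HSC (against 4.89% of all genes), 15 in MPP replicate 1 (31.9%, against 26.4%) and 12 in replicate 2 (25.5%, against 18.6%), with 10 in both (21.3%, against 15.7%). Repair genes with such a peak in MPP were longer, with a median of 52253 bp over 17 genes, than the 30 without, with a median of 29079 bp, and the median over all protein-coding genes was 17146 bp. The highest fold inside a gene was at Xrcc4, chr13:89889053-89889454 in MPP replicate 2, with fold 12 and 24 fragments, and no peak of the other libraries overlapped it. Outside the gene and within 50 kb, 19 genes had a peak in HSC (40.4%, 26.4 to 55.7%, against 25.6%), 40 in MPP replicate 1 (85.1%, against 71.1%) and 41 in replicate 2 (87.2%, against 63.1%). A peak of any of the 3 classes was found for 24 repair genes in HSC (51.1%, 36.1 to 65.9%, against 34%) and for 46 in each MPP library (97.9%, against 78.8% for replicate 1 and 72.7% for replicate 2). The 24 distinct HSC peaks outside the repair genes and within 50 kb of them all overlapped a peak of at least 1 MPP library, against 87.4% of HSC peaks so placed near any protein-coding gene. The strongest, chr6:113306449-113306891 near Ogg1, had fold 8.54 and 14 fragments in HSC, and it was found in both MPP libraries. In MPP replicate 1 the strongest nearby peak lay 23150 bp from Xrcc5 (fold 12.6, 52 fragments) and overlapped peaks of the other libraries. Such a peak may lie closer to other genes than to the repair gene it is counted for.

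Promoter sequence was compared over the 300 bases from 250 before to 50 after each listed start, taken from RefSeq on GRCm38.p6, with 43 promoters of 40 repair genes. Motifs were searched on both strands, and a match describes letters, not a bound site. The receptor hexamer AGGTCA was found in 7 of 43 repair promoters (16.3%, 6.81 to 30.7%), against 14.7% of all 21263 protein-coding promoters. Among promoters overlapped by a peak in both MPP libraries, 3 of 29 repair promoters had it (10.3%), against 11.1% of all such promoters. Exact direct repeats of it with 1, 4 or 5 bases between the copies were in none of the repair promoters, and in 10, 0 and 1 of all promoters. At that rarity, finding none in 43 promoters says little, and imperfect repeats were not searched. The letters GCGGGAA, of the kind E2F factors of the cell cycle bind, were in 13 of 43 repair promoters (30.2%, 17.2 to 46.1%), against 5.95% of all promoters. Among promoters with a peak in both MPP libraries the share was 9 of 29 (31%, 15.3 to 50.8%), against 9.66%, and among repair promoters without it was 4 of 14 (28.6%). CCGGAA, known from ETS factors, was in 21 of 43 (48.8%, against 18.7% of all promoters and 36.8% of all promoters with a peak in both MPP libraries). GCGCATGC, known from NRF1, was in 7 (16.3%, against 3.52% and 5.94%), and CCAAT, known from NFY, in 25 (58.1%, against 38.2% and 38.0%). The remaining motifs were GGGCGG, the GC box, in 27 (62.8%, against 46.2% and 70.0%), CACGTG, the E-box of MYC and related factors, in 6 (14.0%, against 7.84% and 11.4%), and TGACGTCA, the cyclic AMP element, in 2 (4.65%, against 2.23% and 4.97%). GGGCGG and GCGGGAA can share bases, so their counts are not separate.

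**Figure D5:**
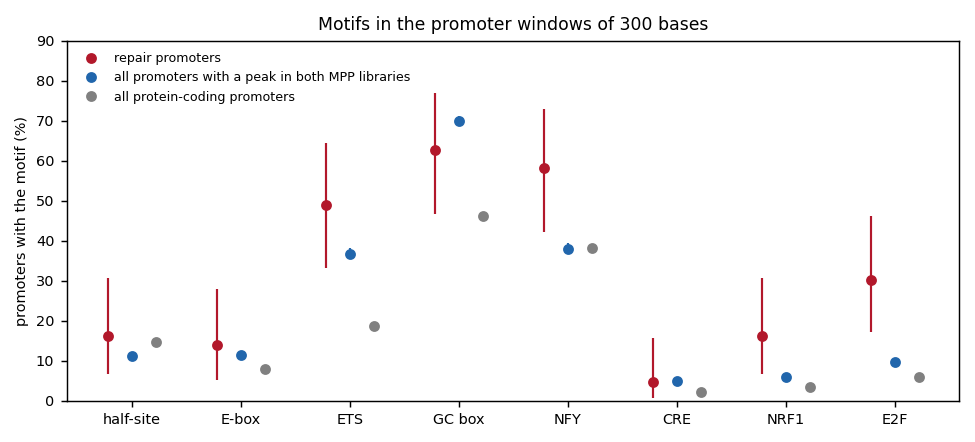
Percent of promoter windows of 300 bases with each motif (y axis) for the 43 repair promoters, for all promoters with a peak in both MPP libraries, and for all protein-coding promoters; bars are exact 95% binomial intervals. The receptor hexamer (labelled half-site) stands at 16.3% in repair promoters and 14.7% in all promoters, and the E2F letters at 30.2% and 5.95%.

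The promoters of 6 genes are shown, chosen after their values were seen: those of Xrcc4 and Chek1, marked in all 3 libraries, Chek2, with the highest HSC fold, Brca2 and Msh6, among the strongest in MPP, and Trp53bp1, whose listed start lies inside the gene. Each is 5′ to 3′ on the gene's strand, with every letter run that matches a searched motif on either strand in capitals. They lie at chr13:90089559-90089858 on the minus strand for Xrcc4, chr9:36726609-36726908 on the minus strand for Chek1, chr5:110839733-110840032 on the plus strand for Chek2, chr5:150522371-150522670 on the plus strand for Brca2, chr17:87974800-87975099 on the plus strand for Msh6, and chr2:121271358-121271657 on the minus strand for Trp53bp1.
Xrcc4: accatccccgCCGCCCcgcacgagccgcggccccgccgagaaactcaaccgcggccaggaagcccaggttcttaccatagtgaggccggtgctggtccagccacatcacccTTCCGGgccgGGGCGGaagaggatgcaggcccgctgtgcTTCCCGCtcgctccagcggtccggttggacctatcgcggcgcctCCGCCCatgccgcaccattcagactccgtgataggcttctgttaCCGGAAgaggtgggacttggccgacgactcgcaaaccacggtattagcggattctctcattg
Chek1: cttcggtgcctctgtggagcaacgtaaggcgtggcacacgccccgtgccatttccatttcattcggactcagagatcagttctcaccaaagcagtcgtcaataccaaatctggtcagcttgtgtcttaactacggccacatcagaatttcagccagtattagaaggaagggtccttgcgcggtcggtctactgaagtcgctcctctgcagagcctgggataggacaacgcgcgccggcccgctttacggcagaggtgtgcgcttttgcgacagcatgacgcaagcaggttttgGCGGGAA
Chek2: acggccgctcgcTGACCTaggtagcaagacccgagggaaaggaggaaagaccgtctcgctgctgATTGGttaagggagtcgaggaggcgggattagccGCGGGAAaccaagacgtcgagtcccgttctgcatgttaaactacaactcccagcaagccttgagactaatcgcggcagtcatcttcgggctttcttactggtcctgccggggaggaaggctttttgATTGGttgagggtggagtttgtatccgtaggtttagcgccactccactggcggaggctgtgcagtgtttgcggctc
Brca2: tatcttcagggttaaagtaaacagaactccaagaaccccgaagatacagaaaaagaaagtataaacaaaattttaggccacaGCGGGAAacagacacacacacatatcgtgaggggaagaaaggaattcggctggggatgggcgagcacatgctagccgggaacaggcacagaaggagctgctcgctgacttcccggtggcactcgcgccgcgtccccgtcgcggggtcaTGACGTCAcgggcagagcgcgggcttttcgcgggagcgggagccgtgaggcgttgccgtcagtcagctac
Msh6: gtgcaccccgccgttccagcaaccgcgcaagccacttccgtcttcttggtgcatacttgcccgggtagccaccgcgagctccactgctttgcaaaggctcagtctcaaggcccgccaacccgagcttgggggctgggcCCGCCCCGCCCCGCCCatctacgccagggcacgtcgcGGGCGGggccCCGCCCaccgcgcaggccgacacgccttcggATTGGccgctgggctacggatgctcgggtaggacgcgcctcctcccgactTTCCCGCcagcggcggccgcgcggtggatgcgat
Trp53bp1: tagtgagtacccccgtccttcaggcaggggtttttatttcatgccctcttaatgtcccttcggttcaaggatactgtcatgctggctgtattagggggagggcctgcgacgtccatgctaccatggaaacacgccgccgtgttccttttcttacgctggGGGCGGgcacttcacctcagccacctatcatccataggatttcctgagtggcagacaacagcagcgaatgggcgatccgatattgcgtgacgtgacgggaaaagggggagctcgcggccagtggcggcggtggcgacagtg
The first 5 of these hold GCGGGAA or its reverse complement, and the last does not. In Chek1 it is the only match and forms the last bases of the window, whereas Msh6 has 5 GC boxes, 1 CCAAT and 1 E2F match, and Xrcc4 has 3 GC boxes and 2 ETS matches besides. Of the 6, Chek2 alone holds the receptor hexamer, on the opposite strand 238 bases before the start. The HSC summit lay 57 bases before the start, and the HSC peak does not reach the hexamer. The wider MPP replicate 2 peak covers it. Brca2 holds the cyclic AMP element 20 bases before the start, and its MPP summits lay 54 and 42 bases before the start in replicates 1 and 2.

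A longer list of 79 other repair and damage response genes was read in the same way. HSC marked 21 (26.6%, 17.3 to 37.7%), MPP replicate 1 marked 58 (73.4%, 62.3 to 82.7%) and replicate 2 marked 64 (81.0%, 70.6 to 89.0%), against 8.21%, 41.2% and 36% of all protein-coding genes. In HSC their median fold was 5.50, at percentile 49.0, the same as for all HSC-marked genes. All 3 libraries marked 17 of the 79 (21.5%, against 5.83%). These were Fan1 and Usp1 of crosslink repair, Rad51d, Bard1 and Rpa1 of recombination, Msh3 and Pms1 of mismatch repair, Ddb2 and Gtf2h4 of nucleotide excision repair, the glycosylases Mutyh, Mbd4 and Smug1, Aptx and Parp2 of strand break repair, Nhej1 and Polm of end joining, and the checkpoint clamp gene Rad1. Fan1, a nuclease of crosslink repair, had fold 5.50 (HSC), 5.94 (MPP replicate 1) and 6.48 (MPP replicate 2). The 79 and the 47 were both named with earlier results of these libraries known, so the 79 are no independent check on the 47.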

How the data were processed

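The 3 RXRA CUT&RUN libraries came as 1 peak list each, so peaks were called per library. Per the submitters' processing notes the tools were MACS2 2.1.4, Bowtie2 2.3.4.1, cutadapt 1.9.1 and Trim Galore 0.4.2, with mm10 as build; no source used here gives their settings, the handling of duplicates or any control library. The fold the authors deposited was taken as the ratio of a peak's pileup plus 1 to its local background plus 1. Their deposited −log10 p-values and −log10 q-values were used unchanged, with a weakest q of 0.0995 (HSC), 0.0971 (MPP replicate 1) and 0.0993 (MPP replicate 2). The deposited score is 10 times −log10 q as a whole number and was not used further. Total reads are not given, so depth was read from pileups, solved from fold plus Poisson p; at a tolerance of 0.001 in −log10 p, 99.98% of HSC pileups were whole, and at least 99.99% of those in each MPP list.

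Genes came from the RefSeq table of GRCm38.p6, which gives no strand; strand and starts came from the promoter table for 40 of 47 genes. Gene-end peaks overlap 1 kb around either gene end by at least 1 bp, peaks in the gene overlap it outside those windows, and peaks within 50 kb lie outside both. Shares carry exact binomial (Clopper-Pearson) and pileups exact Poisson 95% intervals, for counting error only. No p-value was computed, as HSC has 1 library. Scoring (Python 3.11.15, scipy 1.17.1) was tested on simulated data and against bedtools 2.31.1. Alternatives varied the window, q, list length, summit, start and nearest gene rules, and left out each MPP replicate.

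The members, groups, motifs and the list of 79 other genes were chosen with earlier results of these data known. By the naming rule, full values go to members marked in HSC and to the strongest MPP member of each group; others named were chosen after their values were seen. Peak sequences were not analysed here, as no genome was used, and some marker genes read are not reported here.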

Additional observations from a re-analysis of the deposited data

How the results depend on the processing

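The counts of marked repair genes were recomputed with 1 choice changed at a time. Of 50 recomputed main counts 35 stayed within 1.5 times the reported value and 15 did not; among the counts per group and other single values, 136 stayed and 44 did not. With a window of 500 bp 1 gene, Brca1, was marked in HSC and in neither MPP library (2.13%, against 0.315% of all genes), where 0 is reported. With 5 kb 8 genes were marked in all 3 libraries (17.0%, against 9.27%), where 5 is reported (10.6%, against 5.83%). Keeping peaks with q at or below 1e-05 left 1 HSC-marked gene (2.13%, against 2% of all genes; 17.0% against 8.21% as reported) and 0 marked in all 3 (against 1.01%; 10.6% against 5.83% as reported). With both MPP lists cut to the length of the HSC list, MPP replicate 1 and MPP replicate 2 marked 12 genes each. Then 3 genes were marked in all 3 (6.38%, against 1.44%) and 4 in both MPP libraries and not HSC (8.51%, against 3.31%). In HSC and neither MPP list 4 were marked (8.51%, against 4.54%, with 0 against 0.297% as reported). End joining then had 2 genes marked in HSC and 1 in each MPP list, against 2 and 4 as reported. The lists are shorter by construction. Counting listed starts only left 5 HSC-marked genes of 40 (12.5%, against 8.57%) and 2 marked in all 3, Xrcc4 and Chek1 (5.0%, against 6.01%); the genes lost, Fancd2, Prkdc and Xpc, have no listed start. Giving a peak only to the nearest gene end left 5 HSC-marked genes (10.6%, against 6.79%) and 3 marked in all 3, Xrcc4, Prkdc and Chek1 (6.38%, against 4.55%). Leaving out 1 MPP replicate moved the genes marked in every remaining library between 5 and 8, the highest without MPP replicate 1. The 8 were the 5 marked in all 3 libraries (against 5.83% of all genes) with Fancb, Brca1 and Chek2 (against 1.74%). Genes marked in MPP and not in HSC moved between 29 and 32. Each count held the 28 marked in both MPP libraries (against 23.1%). To these came 1 gene of replicate 1 alone (against 12%) or 4 of replicate 2 alone (against 5.32%). Genes marked in HSC alone moved between 0 and 3, the highest without MPP replicate 2. The 3 were again Fancb, Brca1 and Chek2. No paired analysis was possible because HSC has 1 library and no test was made. The HSC-marked genes rest on 6 to 13 fragments, and the HSC list starts at 5. Whether depth set the HSC counts was not tested, and with 1 HSC library it cannot be told apart from cell type.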
